A study of Mus musculus with 68 samples.

Results

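The 7 genes described here are Cubn, Amn, Lrp2, Dab2, Muc3, Cd34 and Srgn, taken from the 55335 gene rows that each of 3 count tables holds. They were chosen by name as genes of the cubilin, amnionless and megalin uptake route and as genes of the visceral endoderm surface, and MCM2-2A values of these same tables were known when they were chosen. Their levels in MCM2-2A and MCM2-R cells are therefore given as a description: no p-value is given for them, and nothing is read from how many of them passed a threshold. Their p-values are given for the POLE4-KO libraries and for differences between clones of 1 genotype.

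All libraries were made from rRNA-depleted total RNA of E14JU cells, a male mouse embryonic stem cell (ESC) line of 129/Ola background, cultured untreated in serum and LIF. MCM2-2A cells carry mutations in the part of MCM2, a subunit of the replicative DNA helicase, that binds histones. The rescue experiment holds MCM2-R#2 (the mutations of clone MCM2-2A#2 turned back to the normal sequence), MCM2-2A#2 and WT#1, with 4 cultures of each line. MCM2-R#2 is named so by the study's sample list, whereas the sample labels of these 4 cultures give their genotype as wild type. The clone experiment holds 8 MCM2-2A clones and 8 wild-type (WT) clones, of which WT#5 was not analysed here because no column of counts could be tied to its 3 libraries. The POLE4 experiment holds 3 knockout clones of POLE4, a small subunit of DNA polymerase epsilon, and WT#1, with 3 libraries of each line. Every line is a single clone or its derivative, so a value that belongs to a clone cannot be told apart from one that belongs to its genotype where a genotype has 1 line. The methods call the libraries of a line biological replicates without naming what separated them, so p-values measure the spread between these libraries.

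Visceral endoderm is the epithelium around the early mouse embryo that feeds it before a placenta forms. It takes up maternal proteins, lipids and vitamins through a receptor made of cubilin (Cubn), which binds ligands such as cobalamin with intrinsic factor, albumin, transferrin and apolipoproteins but has no membrane-spanning part, and amnionless (Amn), which anchors cubilin and carries it to the cell surface. Megalin (Lrp2), a giant receptor of the LDL receptor family, works together with cubilin, and the adaptor Dab2 links megalin to clathrin and is needed for this uptake in mouse visceral endoderm. Of the other 3 genes, Muc3 encodes a membrane-bound mucin known from gut epithelium, Cd34 a sialomucin best known from blood stem cells and vessel walls, and Srgn the proteoglycan serglycin, which is stored in secretory granules of blood cells and is not itself a surface receptor.

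In the mouse genome build GRCm38 with the GENCODE annotation, Cubn lies on chromosome 2 (chr2:13276338-13491813, minus strand, 14.9 kb of exons) and Lrp2 on the same chromosome (chr2:69424340-69586065, minus strand, 16.7 kb of exons). Amn lies at chr12:111271095-111276426 (plus strand, 1.84 kb), Dab2 at chr15:6299788-6440712 (plus strand, 7.34 kb), Muc3 at chr5:137134922-137149322 (minus strand, 1.94 kb), Cd34 at chr1:194938819-194961279 (plus strand, 7.29 kb) and Srgn at chr10:62493833-62527451 (minus strand, 2.20 kb). The GENCODE models of Cubn and Muc3 end short of the start that RefSeq gives these genes, so the promoter windows of both lie outside the gene models. Opposite-strand genes that share exon bases with a member had few counts of their own: 0 to 13 in a library for Gm13270 at Cubn, 0 to 6 for Gm16897 at Cd34 and 0 for Gm18888 at Dab2. The paralogue Muc3a had 0 to 15 counts in a library. The strand setting used in counting is not given in the sources used here, so reads of opposite-strand neighbours cannot be separated with certainty.

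The promoter windows of 5 members are shown because 2 pairs of them (Cubn with Srgn, Muc3 with Cd34) had the most similar levels across lines, and because Dab2 held the most matches to the GATA motif. Each window is RefSeq sequence of GRCm38.p6 from 250 bases before the start to 50 after it, written 5′ to 3′ on the gene's strand. Capitals mark matches on either strand to the GATA motif (the letters TGATAA or AGATAA, or the letters TGATAG or AGATAG), which GATA factors such as the endoderm regulators GATA4 and GATA6 can bind.
Cubn, chr2:13491827-13492126, minus strand: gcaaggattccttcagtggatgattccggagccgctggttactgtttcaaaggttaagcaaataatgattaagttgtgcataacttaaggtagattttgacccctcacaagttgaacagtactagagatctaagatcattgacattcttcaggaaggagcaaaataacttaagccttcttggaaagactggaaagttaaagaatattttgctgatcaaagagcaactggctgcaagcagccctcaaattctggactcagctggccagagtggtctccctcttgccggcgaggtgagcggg
Srgn, chr10:62527396-62527695, minus strand: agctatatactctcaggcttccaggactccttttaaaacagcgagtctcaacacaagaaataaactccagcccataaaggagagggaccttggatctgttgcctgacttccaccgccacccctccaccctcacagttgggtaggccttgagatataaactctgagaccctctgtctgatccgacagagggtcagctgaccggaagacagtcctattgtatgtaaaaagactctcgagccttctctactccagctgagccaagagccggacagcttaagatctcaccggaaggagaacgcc
Muc3, chr5:137165997-137166296, minus strand: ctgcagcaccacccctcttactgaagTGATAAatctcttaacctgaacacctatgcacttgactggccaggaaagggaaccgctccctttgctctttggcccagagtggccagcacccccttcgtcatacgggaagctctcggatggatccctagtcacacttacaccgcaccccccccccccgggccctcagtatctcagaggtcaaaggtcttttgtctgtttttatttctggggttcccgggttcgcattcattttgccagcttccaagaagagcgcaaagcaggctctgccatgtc
Cd34, chr1:194938571-194938870, plus strand: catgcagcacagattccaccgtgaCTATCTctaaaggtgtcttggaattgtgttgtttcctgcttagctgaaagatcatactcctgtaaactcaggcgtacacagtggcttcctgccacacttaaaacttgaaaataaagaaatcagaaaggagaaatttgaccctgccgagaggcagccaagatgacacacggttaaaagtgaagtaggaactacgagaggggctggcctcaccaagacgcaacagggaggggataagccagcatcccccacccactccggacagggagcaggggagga
Dab2, chr15:6299539-6299838, plus strand: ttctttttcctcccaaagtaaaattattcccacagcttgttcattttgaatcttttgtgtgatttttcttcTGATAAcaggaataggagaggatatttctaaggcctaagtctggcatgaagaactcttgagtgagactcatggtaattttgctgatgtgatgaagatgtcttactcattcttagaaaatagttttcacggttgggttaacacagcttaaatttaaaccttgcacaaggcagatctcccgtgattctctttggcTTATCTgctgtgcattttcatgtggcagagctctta

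The GATA letters were found in the windows of 3 of the 7 genes, with 2 matches at the first start of Dab2 and 1 each at Muc3 and Cd34. They occur in 29.8% of all 32851 windows of this length. The SOX letters ACAAAG or ACAATG, searched on both strands, were in the window of 0 of the 7 genes and in 28.6% of all windows. The members are counted as genes whereas the shares are of windows, and Dab2 and Srgn have 2 windows each. A match is a run of letters and not a measured binding site.

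Gene counts per library, in M (mega) counts, ran from 21.9 to 33.8 M in the rescue experiment (14 libraries of 12 cultures), from 26.7 to 64.1 M in the clone experiment (39 libraries) and from 17.5 to 25.7 M in the POLE4 experiment (12 libraries). Levels are given as CPM, counts scaled to the gene total of their library (per M counts) after TMM normalisation within a table. The tables were scaled separately, so no level is compared across them. The stem cell gene Pou5f1 was high in every rescue line, at means of 847 CPM in MCM2-R#2, 782 CPM in MCM2-2A#2 and 811 CPM in WT#1. Pole4 RNA averaged 3.22, 7.21 and 3.74 CPM in POLE4-KO#1, #2 and #3, against 59.8 CPM in WT#1. Mcm2 RNA was measured at 213 CPM in MCM2-R#2, 223 CPM in MCM2-2A#2 and 420 CPM in WT#1. Gene counts do not read the mutation itself.

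Endoderm markers were present at low levels. The transcription factor genes Gata4 and Gata6 of primitive and visceral endoderm averaged 4.30 and 3.44 CPM over the rescue lines. Of the secreted products of differentiated visceral endoderm, Afp (0.0304 CPM), Ttr (0.0408 CPM) and Apoa1 (0.115 CPM) were near 0. The anterior visceral endoderm gene Cer1 was at 0.0320 CPM. Apob and Rbp4, secreted products of the same marker list, had enough counts to be tested in the rescue lines. In bulk RNA, fewer cells of a type and less RNA per cell cannot be told apart, here or in any comparison that follows.

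January library 1 of MCM2-2A#2 correlated at 0.977 at best with the other libraries of its clone and at 0.991 with a library of MCM2-2A#1 (log2 CPM over 10849 genes). It gave 3.61 CPM of Cubn and 0.442 CPM of Srgn, whereas its sister libraries gave 17.6 and 18.3 CPM of Cubn and 1.68 and 2.71 CPM of Srgn. The sister libraries in turn correlated at 0.986 with each other and at 0.986 and 0.987 with MCM2-2A#5. Libraries of MCM2-2A#4, #6 and #7 were as alike across clones as within them, and the same held for WT#3 and WT#7, so whether they are separate clones cannot be read from these files. The comparison of genotypes was also computed without that library and with MCM2-2A#4, #6 and #7 as 1 unit.

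The first comparison asked how far the uptake and surface genes differed in the mutant clone MCM2-2A#2 and whether their levels returned in MCM2-R#2. In MCM2-2A#2, 6 of the 7 genes were about 2.25 to 4.16 times as high as in WT#1, and in MCM2-R#2 the ranges of the same 6 genes overlapped with those of WT#1. Lrp2, the most abundant of them, was the exception. Its mean was 148 CPM in both MCM2-2A#2 and WT#1. How many of all genes had ranges without overlap was not counted, here or in later comparisons, so separate ranges are a description.

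Cubn stood out most among the receptor genes. It was measured at 4.31, 3.58, 4.62 and 4.82 CPM in the MCM2-R#2 cultures, at 27.3, 27.1, 16.8 and 19.7 CPM in the MCM2-2A#2 cultures and at 6.28, 4.37, 5.32 and 5.93 CPM in the WT#1 cultures. Every MCM2-2A#2 culture lay far above all others, and the ranges of MCM2-R#2 and WT#1 overlapped. Cubn gave log2 fold changes of 2.06 (SE 0.16) for MCM2-2A#2 over WT#1, -2.39 (SE 0.17) for MCM2-R#2 over MCM2-2A#2 and -0.34 (SE 0.17) for MCM2-R#2 over WT#1.

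Its partner Amn differed by less. The cultures gave 1.81, 1.81, 1.76 and 1.49 CPM in MCM2-R#2, 3.71, 5.13, 3.97 and 3.78 CPM in MCM2-2A#2 and 2.51, 1.31, 1.92 and 1.61 CPM in WT#1. The 4 MCM2-2A#2 cultures were above the other 8, at a log2 fold change of 1.17 (SE 0.18) over WT#1. MCM2-R#2 was 1.27 lower than MCM2-2A#2 on the log2 scale (log2 fold change -1.27, SE 0.18).

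Lrp2, the co-receptor, was measured at 194, 183, 180 and 155 CPM in MCM2-R#2, at 141, 130, 152 and 169 CPM in MCM2-2A#2 and at 151, 140, 154 and 146 CPM in WT#1. The MCM2-2A#2 and WT#1 ranges overlapped throughout, with a log2 fold change of 0.004 (SE 0.079, 95% interval -0.15 to 0.16). MCM2-R#2 cultures were all slightly above those of WT#1 (log2 fold change 0.27, SE 0.079), and MCM2-R#2 over MCM2-2A#2 gave 0.26 (SE 0.079) with overlapping ranges. Per kilobase of exon, Lrp2 was also the most abundant member in each table, with line means of 8.84 to 10.7 CPM per kb in the rescue experiment, against at most 2.66 CPM per kb for any other member.

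In the rescue lines Dab2, the adaptor that couples megalin to clathrin, followed Cubn and not Lrp2. It gave 6.74, 6.14, 7.99 and 5.62 CPM in MCM2-R#2, 17.1, 19.1, 18.7 and 14.5 CPM in MCM2-2A#2 and 6.28, 4.74, 7.17 and 7.28 CPM in WT#1. The lowest mutant culture was well above the highest culture of either other line. The log2 fold change was 1.43 (SE 0.14) for MCM2-2A#2 over WT#1 and -1.39 (SE 0.14) for MCM2-R#2 over MCM2-2A#2.

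**Figure D1:**
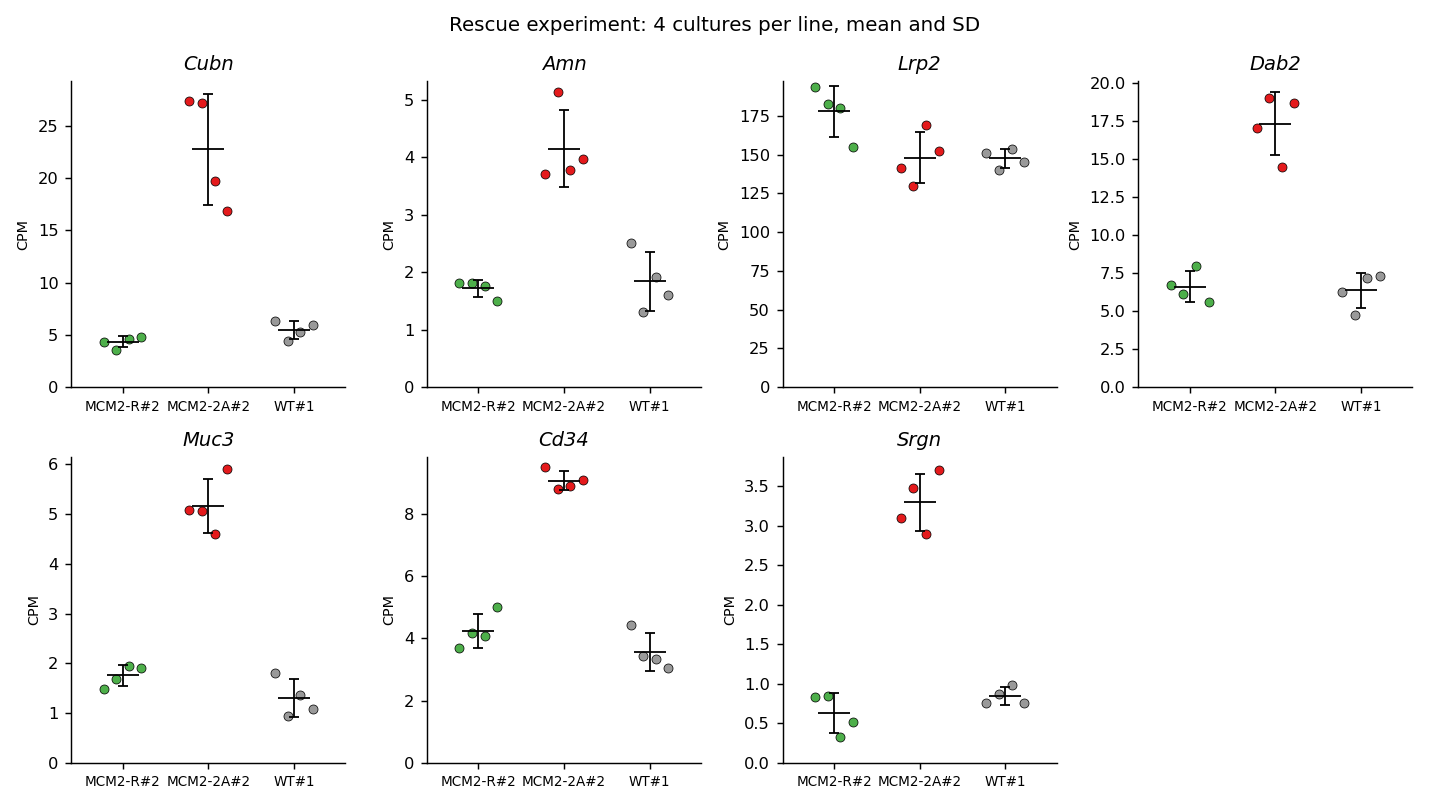
Level of each of the 7 genes (vertical axes, CPM from 0) in each culture (points) of MCM2-R#2, MCM2-2A#2 and WT#1, with mean and SD (bars) over 4 cultures. Apart from Lrp2, the MCM2-2A#2 points lie above all points of the other lines, for example at 16.8 to 27.3 CPM for Cubn, against 4.37 to 6.28 CPM in WT#1.

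The surface mucin genes were also highest in MCM2-2A#2. Muc3 was at 1.49, 1.69, 1.94 and 1.91 CPM in MCM2-R#2, at 5.08, 5.06, 5.90 and 4.61 CPM in MCM2-2A#2 and at 1.80, 0.947, 1.37 and 1.07 CPM in WT#1. The mutant cultures did not overlap with either other line (log2 fold change 1.99, SE 0.17, over WT#1). MCM2-R#2 lay 1.55 below MCM2-2A#2 on the log2 scale (-1.55, SE 0.17), at values that overlapped with WT#1.

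Cd34 was measured at 3.70, 4.18, 4.07 and 5.00 CPM in MCM2-R#2, at 9.51, 8.79, 9.08 and 8.90 CPM in MCM2-2A#2 and at 4.44, 3.42, 3.34 and 3.06 CPM in WT#1. The mutant cultures were again above all others (log2 fold change 1.36, SE 0.12, over WT#1, and -1.10, SE 0.12, for MCM2-R#2 over MCM2-2A#2).

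Srgn, the least abundant member, gave 0.834, 0.843, 0.330 and 0.520 CPM in MCM2-R#2, 3.10, 3.47, 3.70 and 2.90 CPM in MCM2-2A#2 and 0.753, 0.874, 0.987 and 0.757 CPM in WT#1. The mutant cultures lay clear of both other lines (log2 fold change 1.93, SE 0.21, over WT#1, and -2.35, SE 0.22, for MCM2-R#2 over MCM2-2A#2). Srgn and Cd34 are otherwise known from blood cells, and 0 of 10 tested blood and endothelial markers were called in MCM2-2A#2 (list median 0.24). Their summed level was 61.5 to 76.3 CPM in MCM2-R#2, 65.6 to 82.8 CPM in MCM2-2A#2 and 60.2 to 85.2 CPM in WT#1. The uncalled members of this list with the largest values were Cdh5 (1.24, SE 0.37), Spi1 (0.79, SE 0.29) and Itga2b (0.60, SE 0.21) for MCM2-2A#2 over WT#1, and Cdh5 (-1.33, SE 0.38) and Itga2b (-0.68, SE 0.22) for MCM2-R#2 over MCM2-2A#2. The pan-leukocyte gene Ptprc averaged 0.0748 CPM. The part of these markers in the levels of Srgn and Cd34 was not tested.

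A gene was called at an adjusted p under 0.01 in edgeR's quasi-likelihood test together with an absolute log2 fold change over 0.58. In MCM2-2A#2 against WT#1, 6 of the 7 genes were called, all higher, and 2.76% of the 17041 genes tested were called. In MCM2-R#2 against MCM2-2A#2, 6 of 7 were called, all lower, against 1.36% of all genes. In MCM2-R#2 against WT#1, 0 of 7 were called, against 0.299% of all genes. The median log2 fold change of the 7 genes was 1.43, -1.39 and 0.05 in these comparisons, and that of all genes was -0.014, 0.009 and 0.00055. The comparisons share their libraries, and the first entered the choice of the genes, so nothing is read from these counts.

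Calls among other genes of the same route are given beside the 2.76% of all genes called in MCM2-2A#2 against WT#1. In lists this short that share alone gives few calls or none, so nothing is read from a low count. Of 25 genes of the uptake machinery (chaperones, adaptors, clathrin, recycling and endosomal acidification), 0 rose and 1 fell in MCM2-2A#2, and the list's median log2 fold change was -0.031. The one that fell was Hip1, which joins clathrin coats to actin (log2 fold change -0.83, SE 0.13), and it was higher in MCM2-R#2 than in MCM2-2A#2 (0.68, SE 0.13). Of 11 other LDL receptor family genes, 0 rose and 0 fell, with a median of -0.091.

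Among ligands of cubilin and megalin, 8 of 14 had enough counts to be tested, and 0 were called in MCM2-2A#2 (median 0.22). The ligand transferrin (Trf) was lower in MCM2-R#2 than in MCM2-2A#2 (-0.92, SE 0.19). Of 12 lysosomal genes, the protease gene Ctsh alone was called in MCM2-2A#2 (1.18, SE 0.26; list median 0.01), and it was lower in MCM2-R#2 than in MCM2-2A#2 (-1.52, SE 0.28). Of the other membrane mucins and sialomucins, 3 of 9 were tested and 0 were called (median -0.078). Of 14 tested proteoglycan core proteins, Sdc4 rose (0.83, SE 0.15) and Gpc3 fell (-0.92, SE 0.10), with a list median of -0.14. In MCM2-R#2 against MCM2-2A#2, Gpc3 (0.72, SE 0.10) and Gpc6 (1.61, SE 0.25) were the called genes of this list, both higher.

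Markers of primitive and visceral endoderm were highest in MCM2-2A#2 as well. In MCM2-2A#2, 7 of 12 tested genes of this list rose and 0 fell, with a list median of 1.36. Among them were Gata6 (log2 fold change 2.27, SE 0.19), Sox17 (2.15, SE 0.25), Pdgfra (1.55, SE 0.21), Sox7, Gata4 and Foxa1. In MCM2-R#2, 6 of 12 were lower than in MCM2-2A#2, among them Sox17 (-2.37, SE 0.26) and Gata6 (-2.22, SE 0.19), and 0 of 12 differed from WT#1. The summed level of the list was 19.2 to 20.9 CPM in MCM2-R#2, 36.4 to 48.6 CPM in MCM2-2A#2 and 17.4 to 20.2 CPM in WT#1. Of 11 parietal endoderm markers, 3 rose in MCM2-2A#2 (Col4a1 by 1.20, Col4a2 by 0.99 and Lama1 by 0.69, log2), and the list's summed level was 518 to 625 CPM in MCM2-R#2, 685 to 757 CPM in MCM2-2A#2 and 471 to 555 CPM in WT#1. The part of these marker levels in the members' values was not tested. Fibroblast markers (0 of 5), ESC markers (0 of 8) and trophectoderm markers (0 higher, Tfap2c lower, of 7) held no gene called higher in MCM2-2A#2 against WT#1. Their list medians were -0.37, -0.04 and -0.27. Uncalled higher values included the trophectoderm marker Hand1 (1.26, SE 0.41) and the ESC marker Klf4 (0.32, SE 0.060).

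The clone experiment asked whether the differences of MCM2-2A#2 were shared by other clones with the same mutations. The study's sample list puts these libraries under the months January, March and August, called batches here. Libraries were summed per clone within a month, which gave 9 MCM2-2A and 8 WT sums. MCM2-2A#1 (January and March) and WT#1 (March and August) each entered with more than 1 sum. The fit took these sums as independent, so the SEs between genotypes do not allow for repeated clones. Muc3 and Cd34 were higher in every MCM2-2A sum than in any WT sum, in genes chosen with MCM2-2A values known. Cubn, Amn, Dab2 and Srgn were higher on average with overlapping ranges, and Lrp2 was not higher. The share of all genes that separate in this way was not counted. The batch was a term of the fit. The January sums are of MCM2-2A clones alone, since the January WT clone is WT#5, so January adds no comparison with WT within its month. Values within August compare sums of clones. March has 1 WT clone, so values within March compare single libraries, 3 of WT#1 against 6 of MCM2-2A#1 and #3, and their SE is one between libraries and not between clones.

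Muc3 ran from 3.36 CPM (clone #1, January) over a median of 4.46 to 6.31 CPM (clone #3) in the MCM2-2A sums, and from 0.817 CPM (WT#1, March) over a median of 1.21 to 2.04 CPM (WT#4) in the WT sums. No MCM2-2A sum reached down to the WT range. Muc3 had a log2 fold change of 1.89 (SE 0.20), 1.75 (SE 0.18) within the August batch and 2.57 (SE 0.35) between the March libraries.

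Cd34 ran from 4.48 CPM (clone #7) over 5.35 to 6.23 CPM (clone #5) in the MCM2-2A sums, and from 2.35 CPM (WT#2) over 2.72 to 4.36 CPM (WT#4) in the WT sums. The gap between the genotypes was narrow, set by WT#4 on 1 side and clone #7 on the other. Its log2 fold change was 0.83 (SE 0.13), 0.81 (SE 0.16) within August and 0.95 (SE 0.17) between the March libraries.

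Cubn varied widely among the mutant clones. It ran from 2.76 CPM over 8.72 to 13.6 CPM in the MCM2-2A sums and from 1.67 CPM over 4.69 to 6.94 CPM in the WT sums. The low MCM2-2A values came from clone #1, at 2.76 CPM in January and 2.98 CPM in March, inside the range of the March and August WT sums, whereas the other 7 sums were between 7.77 and 13.6 CPM and above all WT sums. The genotypes differed on the log2 scale by 1.11 (SE 0.31), 0.97 (SE 0.21) within August and 1.82 (SE 0.50) between the March libraries. WT#1 was the WT clone with the least Cubn, with 2.80 CPM in August and 1.67 CPM in March. Within March, single libraries gave 2.69 to 3.39 CPM in MCM2-2A#1 and 1.48 to 1.82 CPM in WT#1.

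Srgn followed Cubn. It ran from 0.326 CPM (clone #1, January) over 0.812 to 1.99 CPM (clone #8) in the MCM2-2A sums and from 0.198 CPM (WT#1, March) over 0.453 to 0.737 CPM (WT#7) in the WT sums. The clones with the most and the least Srgn of the MCM2-2A genotype were those with the most and the least Cubn. For Srgn the log2 fold change was 1.16 (SE 0.39), 1.00 (SE 0.34) within August and 1.94 (SE 0.52) between the March libraries.

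Dab2 was ordered differently among the mutant clones. Clone #1, the lowest in Cubn, was at 12.1 CPM in January and 13.7 CPM in March, and clone #2 was at 12.4 CPM. The August clones were at 5.23 to 8.70 CPM, within the WT range of 1.90 CPM (WT#6) over 5.60 to 8.85 CPM (WT#2). The fitted log2 value for Dab2 was 0.34 (SE 0.26), 0.23 (SE 0.30) within August and 0.88 (SE 0.24) between the March libraries.

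Amn ran from 0.796 CPM (clone #7) over 1.64 to 2.05 CPM (clone #5) in the MCM2-2A sums and from 0.623 CPM (WT#8) over 0.987 to 1.29 CPM (WT#4) in the WT sums (log2 fold change 0.49, SE 0.20). Its ranges overlapped, since clones #3, #4, #6 and #7 lay within the WT range and the sums of clones #1, #2, #5 and #8 above it.

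Lrp2 was between 93.6 CPM (clone #8) and 198 CPM (clone #6) in the MCM2-2A sums, with a median of 175 CPM, and between 87.9 CPM (WT#6) and 379 CPM (WT#2) in the WT sums, with a median of 216 CPM. The spread of the WT clones contained every mutant clone. The log2 fold change was -0.31 (SE 0.26), -0.46 (SE 0.30) within August and 0.43 (SE 0.15) between the March libraries. The sign was the other way in March, where the clones and the units differ along with the month, and these cannot be told apart.

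Of the 7 genes, 2 were called in MCM2-2A against WT clones, Muc3 and Cd34, and 0.676% of the 20868 genes tested were called. The members' median log2 fold change was 0.83, and that of all genes was -0.030. This contrast also entered the choice of the genes. Without WT#1, 13 genes were called in place of 141, and within August 40, with Muc3 the only member called in either case. With MCM2-2A#4, #6 and #7 as 1 unit, 47 were called, and the call of Cd34 was lost while that of Muc3 held. Muc3 was not called in August without WT#1 and MCM2-2A#2, or between the March libraries. Of the lists, only that of primitive and visceral endoderm markers held called genes: Gata6 (1.67, SE 0.24), Sox17 (1.22, SE 0.23) and Pdgfra (1.18, SE 0.20) rose, 0 of 13 fell, and the list median was 0.63. Its summed level was 13.2 to 31.0 CPM in the MCM2-2A sums and 7.41 to 17.5 CPM in the WT sums. In the uptake machinery (25 tested), the LDL receptor family (11), ligands (8), lysosomal genes (12), mucins (5) and proteoglycans (15), 0 were called.

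**Figure D2:**
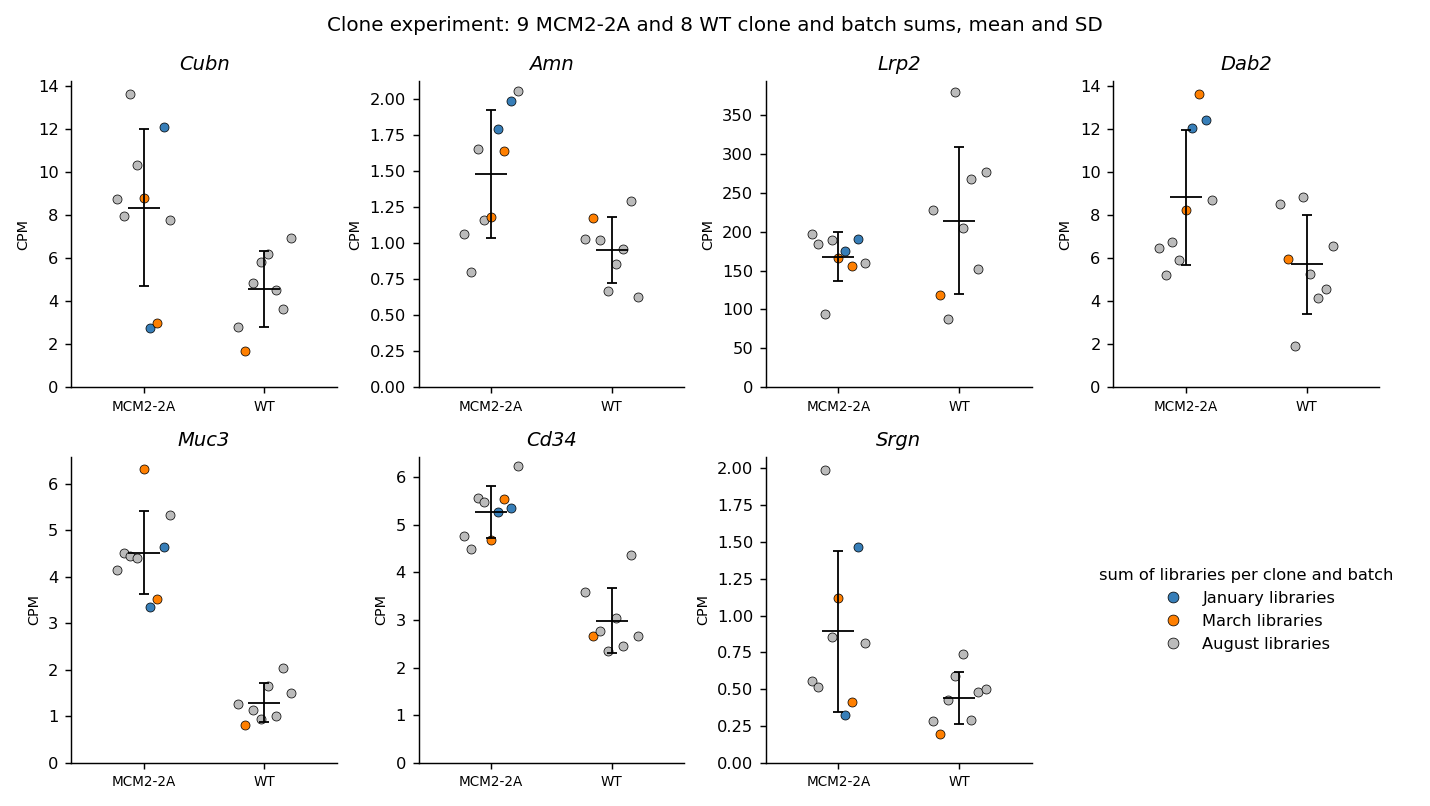
Level of each gene (vertical axes, CPM from 0) in 9 MCM2-2A and 8 WT sums of libraries per clone and batch (points, coloured by batch), with mean and SD over sums. Muc3 (3.36 to 6.31 CPM in MCM2-2A, 0.817 to 2.04 CPM in WT) and Cd34 separate by genotype, and the ranges of the other genes overlap.

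Clones of 1 genotype were then compared with each other within the August batch, with 2 libraries per clone as units. The genes were chosen by name, but with earlier results of these same libraries known. The p-values of these differences may therefore not be independent of the choice. Among 7 WT clones, 4 of the 7 genes differed (edgeR quasi-likelihood F test, Benjamini-Hochberg adjusted over all genes), and 25.5% of the 20538 genes tested were called. They were Dab2 (range of clone means 2.23 log2, adjusted p = 2.5e-05), Lrp2 (2.13, adjusted p = 9.5e-06), Cubn (1.34, adjusted p = 7.2e-04) and Cd34 (0.93, adjusted p = 0.0025). WT#6 was lowest in both Lrp2 and Dab2, at 87.9 and 1.90 CPM, and WT#2 was highest in both, at 379 and 8.85 CPM. Without WT#1 the call of Cubn was lost (range 0.92, adjusted p = 0.018), and without WT#4 that of Cd34 (0.63, adjusted p = 0.084). Muc3 passed with the library number as a replicate block, added after seeing the data (adjusted p = 0.0097).

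Among 5 August MCM2-2A clones, 2 of the 7 genes differed, Srgn (range 1.96, adjusted p = 0.001) and Lrp2 (1.07, adjusted p = 0.0056), and 13.4% of all genes were called. Both calls rested on clone #8, with 1.99 CPM of Srgn and 93.6 CPM of Lrp2. Without that clone, Srgn had a range of 0.73 (adjusted p = 0.39) and Lrp2 of 0.26 (adjusted p = 0.87). Muc3 gave a range of 0.35 (adjusted p = 0.72) among these clones and Cd34 one of 0.50 (adjusted p = 0.19). Cubn (0.78, adjusted p = 0.022), Amn (1.37, adjusted p = 0.013) and Dab2 (0.74, adjusted p = 0.15) did not pass either. With the library number as a replicate block, added after seeing the data, Cubn (adjusted p = 0.0054) and Amn (adjusted p = 0.0052) passed. A missed threshold with 2 libraries per clone does not show that the clones were alike.

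The POLE4 experiment asked whether another replisome mutation, in cells without POLE4, goes with a change of these genes. The 3 knockout clones did not share one pattern. In POLE4-KO#1, Cubn, Lrp2 and Dab2 fell together. In POLE4-KO#2, Cubn rose while Amn and Muc3 did not, and in POLE4-KO#3 Muc3 rose. Each knockout clone was compared with the same 3 WT#1 libraries, and WT#1 had the least Cubn of the WT clones in the clone experiment. The August WT clones there ranged over 1.34 log2 in Cubn, 2.13 in Lrp2 and 2.23 in Dab2. Whether the knockout clones differ by more than WT clones do was not tested.

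Cubn was measured at 0.693, 1.07 and 1.13 CPM in POLE4-KO#1, at 6.19, 7.44 and 7.68 CPM in POLE4-KO#2, at 2.71, 3.13 and 3.71 CPM in POLE4-KO#3 and at 2.51, 2.19 and 2.03 CPM in WT#1. The libraries of each line were separate from those of every other. By edgeR's test, Cubn fell in POLE4-KO#1 (-1.19 on the log2 scale, SE 0.22, adjusted p = 7.2e-04) and rose in POLE4-KO#2 (1.66, SE 0.18, adjusted p = 4.1e-06). In POLE4-KO#3 it did not pass (0.52, SE 0.19, adjusted p = 0.079), although all 3 of its libraries were above WT#1.

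Lrp2 gave 98.8, 81.3 and 102 CPM in POLE4-KO#1, 192, 244 and 204 CPM in POLE4-KO#2, 179, 185 and 196 CPM in POLE4-KO#3 and 163, 154 and 159 CPM in WT#1. It fell in POLE4-KO#1 (-0.76, SE 0.094, adjusted p = 1.7e-05). The difference in POLE4-KO#2 was significant in the test but below the fold limit (0.42, SE 0.093, adjusted p = 0.0027), and that in POLE4-KO#3 did not pass (0.23, SE 0.093, adjusted p = 0.11).

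Dab2 was at 2.40, 2.22 and 3.44 CPM in POLE4-KO#1, at 7.62, 7.06 and 8.58 CPM in POLE4-KO#2, at 8.96, 8.05 and 10.2 CPM in POLE4-KO#3 and at 6.25, 5.96 and 5.36 CPM in WT#1. POLE4-KO#1 lay below and the other 2 knockout clones above every WT#1 library. It fell in POLE4-KO#1 (-1.11, SE 0.17, adjusted p = 1.3e-04) and did not pass in POLE4-KO#2 (0.40, SE 0.15, adjusted p = 0.058) or POLE4-KO#3 (0.63, SE 0.15, adjusted p = 0.014). With the library number of the knockout clones as a replicate block, Dab2 passed in POLE4-KO#3 (0.62, SE 0.12, adjusted p = 0.0013).

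The anchoring partner Amn was at 0.75, 1.11 and 0.63 CPM in POLE4-KO#1, at 0.619, 0.798 and 0.601 CPM in POLE4-KO#2, at 1.20, 2.25 and 1.05 CPM in POLE4-KO#3 and at 1.18, 1.15 and 1.55 CPM in WT#1. The first 2 knockout clones lay below WT#1, without a call (-0.64, SE 0.33, adjusted p = 0.17, and -0.93, SE 0.34, adjusted p = 0.047). In POLE4-KO#2, Cubn was thus 3.17 times as high as in WT#1 while the estimate for Amn was on the lower side.

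Muc3 gave 1.28, 0.888 and 0.938 CPM in POLE4-KO#1, 1.24, 0.840 and 1.20 CPM in POLE4-KO#2, 3.01, 2.12 and 3.34 CPM in POLE4-KO#3 and 1.13, 1.27 and 1.5 CPM in WT#1. Only the POLE4-KO#3 libraries were clear of WT#1. Muc3 rose there (1.12, SE 0.24, adjusted p = 0.006), with a call that was lost when any WT#1 library, or POLE4-KO#3 library 1 or 3, was left out (adjusted p between 0.015 and 0.041, log2 fold change between 0.96 and 1.23). In POLE4-KO#1 and #2 its log2 fold changes were -0.34 (SE 0.27, adjusted p = 0.38) and -0.25 (SE 0.26, adjusted p = 0.49).

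The ranges of Cd34 in each knockout clone overlapped with WT#1. It was at 3.89, 4.71 and 3.56 CPM in POLE4-KO#1, at 3.71, 4.03 and 3.86 CPM in POLE4-KO#2, at 4.57, 5.89 and 5.17 CPM in POLE4-KO#3 and at 3.74, 4.77 and 2.80 CPM in WT#1. None of the 3 contrasts of Cd34 passed, with the largest in POLE4-KO#3 (0.46, SE 0.18, 95% interval 0.10 to 0.82, adjusted p = 0.11).

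Srgn was read from few counts, 1, 1 and 5 in POLE4-KO#1, 16, 16 and 14 in POLE4-KO#2, 6, 7 and 14 in POLE4-KO#3 and 5, 13 and 4 in WT#1. The POLE4-KO#2 libraries were the only ones that did not overlap with WT#1. Over WT#1, the fitted log2 values were -1.59 (SE 0.59, edgeR adjusted p = 0.056) in POLE4-KO#1, 1.05 (SE 0.42, adjusted p = 0.07) in POLE4-KO#2 and 0.34 (SE 0.46, adjusted p = 0.67) in POLE4-KO#3, and none of them passed.

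**Figure D3:**
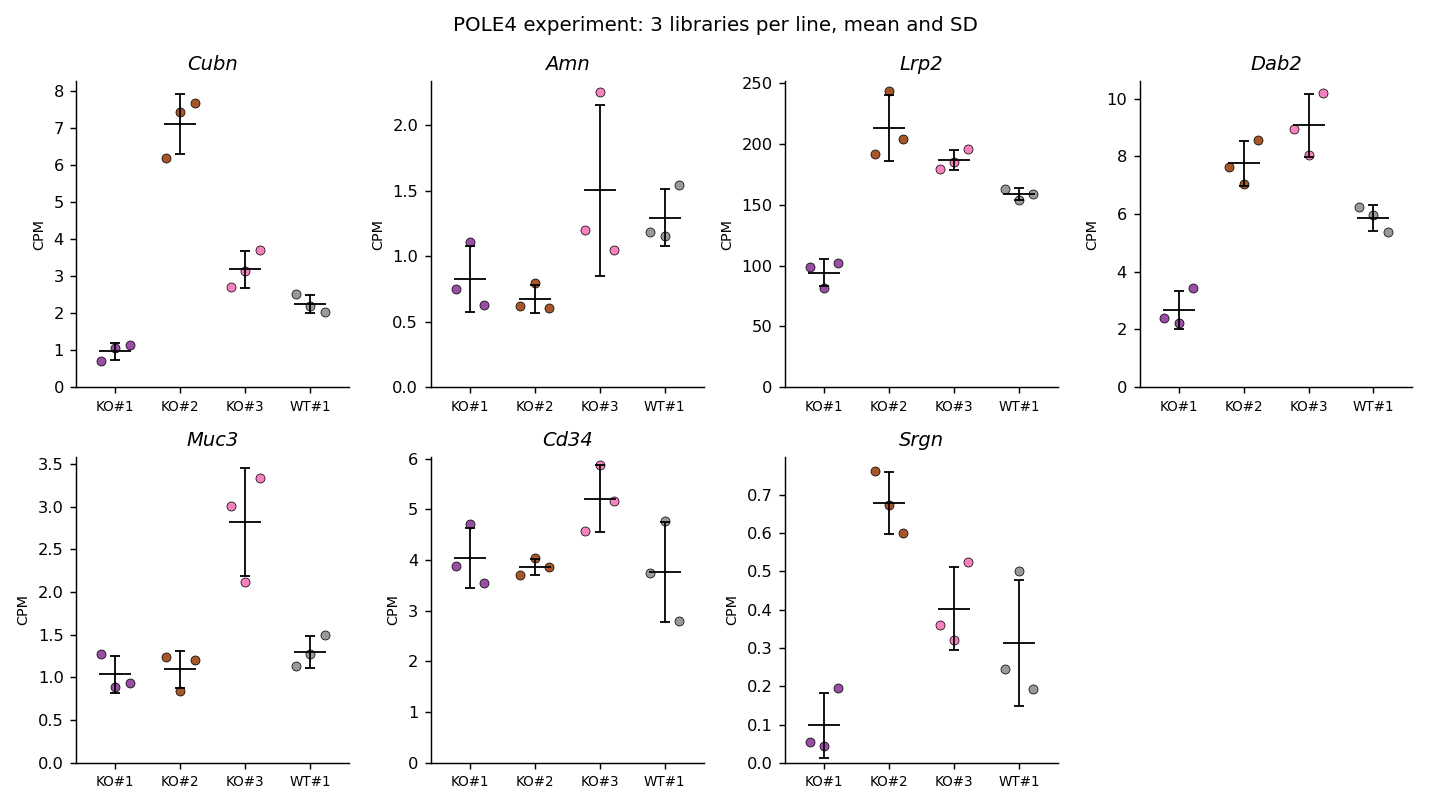
Level of each gene (vertical axes, CPM from 0) in 3 libraries (points) of POLE4-KO#1, #2 and #3 and WT#1, with mean and SD. Cubn lies at 0.693 to 1.13 CPM in POLE4-KO#1 and 6.19 to 7.68 CPM in POLE4-KO#2, on either side of WT#1 at 2.03 to 2.51 CPM.

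By count, 3 of the 7 genes fell and 0 rose in POLE4-KO#1, where 11.6% of the 16790 genes tested were called in either direction and 7.97% were called lower. The members' median was -0.76 there, and that of all genes 0.0007. In POLE4-KO#2, 1 rose and 0 fell, where 11.6% of all genes were called (medians 0.40 and -0.027). In POLE4-KO#3, 1 rose and 0 fell, where 3.01% were called (medians 0.46 and -0.0036), and with the replicate block 2 rose. For the mean of the 3 knockout clones against WT#1, 0 of 7 genes passed, where 5.88% were called. The mean contrast averaged clones whose estimates had opposite signs, and Cubn gave 0.33 (SE 0.16, adjusted p = 0.16), Lrp2 -0.032 (SE 0.076, adjusted p = 0.79) and Dab2 -0.025 (SE 0.13, adjusted p = 0.91). A test of differences among the 3 knockout clones, chosen after their values were seen, called 5 of the 7 genes, where 21.1% of all genes were called. The largest differences were those of Cubn (range 2.85 log2, edgeR adjusted p = 4.4e-08) and Srgn (2.64, adjusted p = 0.0023), before Dab2 (1.74, adjusted p = 1.1e-06), Muc3 (1.46, adjusted p = 1.3e-04) and Lrp2 (1.18, adjusted p = 1.6e-07). Amn (1.15, adjusted p = 0.02) and Cd34 (0.43, adjusted p = 0.11) did not pass, whereas with the replicate block Amn did (1.13, adjusted p = 0.0042). The call of Srgn was lost without POLE4-KO#1 library 1 (adjusted p = 0.012) or library 2 (adjusted p = 0.013).

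**Figure D4:**
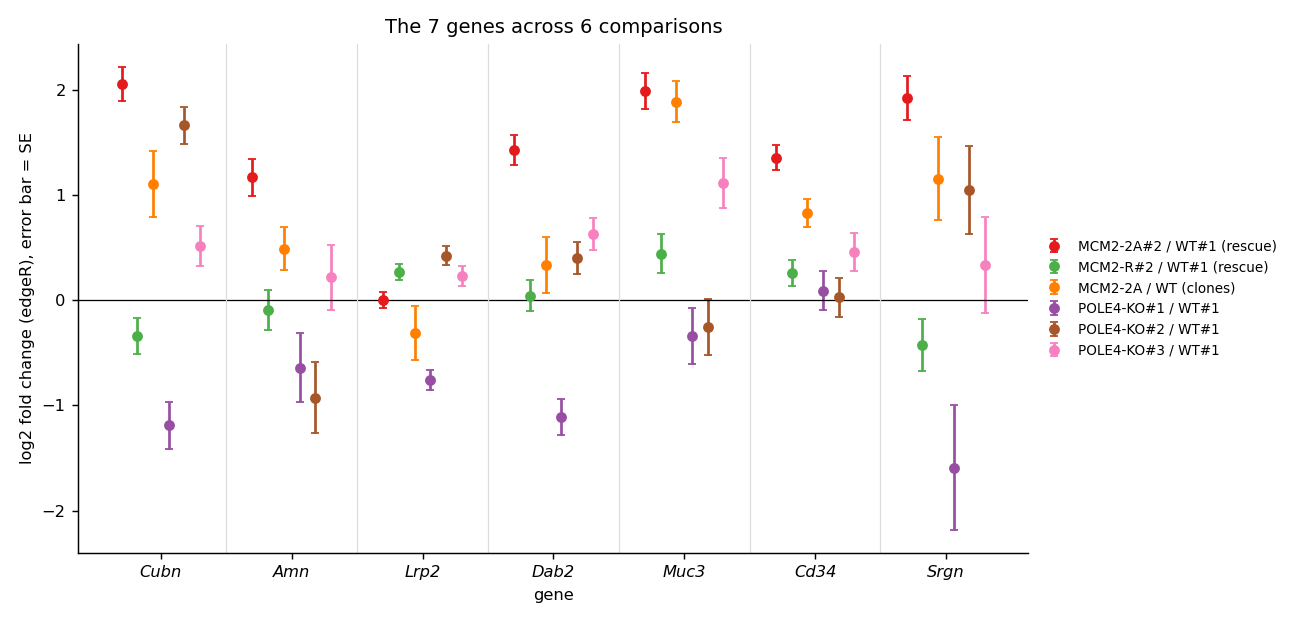
Log2 fold change (vertical axis, points, with SE as bars) of the 7 genes in 6 comparisons, grouped by gene along the horizontal axis. Cubn runs from -1.19 in POLE4-KO#1 to 2.06 in MCM2-2A#2, whereas Lrp2 stays between -0.76 and 0.42.

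Calls in the wider uptake route are given beside the shares of all genes called. These were 11.6% in POLE4-KO#1, 11.6% in POLE4-KO#2 and 3.01% in POLE4-KO#3. Since the shares differ between the clones, no difference of the route is read from the list counts. In POLE4-KO#1, 3 of 25 machinery genes rose, the clathrin light chain gene Cltb (0.88, SE 0.072, adjusted p = 1.5e-07), the endocytic motor gene Myo6 (0.69, SE 0.11, adjusted p = 2.5e-04) and the adaptor gene Dab1 (0.62, SE 0.11, adjusted p = 6.8e-04). In the same clone 1 fell, Clcn5, which encodes an endosomal chloride and proton exchanger (-0.72, SE 0.073, adjusted p = 1.8e-06), and the list median was 0.067. In POLE4-KO#2 only Lrpap1 was called, the chaperone of LDL family receptors (0.59, SE 0.12, adjusted p = 0.0013), with a list median of 0.001, and in POLE4-KO#3 0 were called (median 0.051).

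Of 11 LDL receptor family genes, 2 fell in POLE4-KO#1, Lrp4 (-0.86, SE 0.12) and Lrp8 (-0.79, SE 0.20), and 2 in POLE4-KO#2, Lrp8 (-1.51, SE 0.21) and Lrp10 (-1.57, SE 0.11). None of them was called in POLE4-KO#3. The ligand gene Clu fell in POLE4-KO#1 (-1.20, SE 0.098) and POLE4-KO#2 (-1.74, SE 0.10), Apom (-1.77, SE 0.38) and Tcn2 (-0.63, SE 0.13) fell in POLE4-KO#1, and Trf rose in POLE4-KO#3 (0.80, SE 0.15), out of 8 ligands tested. Of 11 tested lysosomal genes, Ctsl fell in POLE4-KO#1 (-0.87, SE 0.076) and POLE4-KO#2 (-0.98, SE 0.076), where Ctsb (-0.99, SE 0.096) and Lipa (-0.82, SE 0.21) fell as well.

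Of 3 tested mucins, Muc1 (-0.90, SE 0.22) and Podxl (-0.86, SE 0.077) fell in POLE4-KO#1. Of 14 proteoglycan core proteins, 5 were lower and 1 higher in POLE4-KO#1 (Cd44 fell by 3.00, Gpc3 by 1.62). In POLE4-KO#2, 6 were lower and 1 higher, and in POLE4-KO#3 1 was higher, Sdc4. Of all genes, 7.97% were called lower in POLE4-KO#1, 7% in POLE4-KO#2 and 0.435% in POLE4-KO#3. The list medians of proteoglycans were -0.68, -0.54 and 0.24 in POLE4-KO#1, #2 and #3.

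Levels of other cell type markers differed between the knockout clones too. The summed level of fibroblast markers was 86.3 to 103 CPM in POLE4-KO#1, 128 to 163 CPM in POLE4-KO#2 and 273 to 344 CPM in POLE4-KO#3, against 290 to 345 CPM in WT#1, and 4, 3 and 0 of 5 tested markers fell. Trophectoderm markers summed to 77.2 to 77.8 CPM, 155 to 171 CPM and 321 to 406 CPM in the 3 clones, against 319 to 324 CPM in WT#1. Both sums were below WT#1 in POLE4-KO#1 and POLE4-KO#2. Markers of primitive and visceral endoderm summed to 12.4 to 13.9 CPM, 11.3 to 15.7 CPM and 19.2 to 21.4 CPM, against 13.4 to 15.9 CPM in WT#1, with 1 of 9 higher and 1 lower in POLE4-KO#1 (Sox7 1.89, Cited1 -2.31), likewise in POLE4-KO#2 (Pdgfra 0.97, Cited1 -1.18), and 1 higher in POLE4-KO#3 (Sox7 0.93). Of 11 parietal endoderm markers, 7 fell and 1 rose in POLE4-KO#1, 2 fell and 1 rose in POLE4-KO#2 and 2 rose in POLE4-KO#3 (Col4a1 1.05, Col4a2 1.09). Of 7 tested blood and endothelial markers, Tek rose in all 3 clones (1.05, 1.81 and 1.19) and Runx1 fell in POLE4-KO#1 (-2.29) and POLE4-KO#2 (-1.21), and the list summed to 59.9 to 63.2 CPM, 90.0 to 97.9 CPM and 82.9 to 87.8 CPM in the 3 clones, against 52.1 to 65.8 CPM in WT#1. None of the 8 ESC markers was called in any of them. The part of these markers in the members' values was not tested.

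Across all 24 line means (3 rescue lines, 17 clone and batch sums and 4 POLE4 lines), centred within each table and batch, correlations within the 7 genes ran widely. Cubn and Srgn had the highest correlation of any pair, with r = 0.937 (Pearson, log2 CPM), followed by Muc3 and Cd34 with r = 0.912. The receptor partners were further apart, at r = 0.275 for Cubn with Amn and r = 0.109 for Cubn with Lrp2, and Amn with Lrp2 gave r = -0.426. Dab2 was closer to Lrp2 (r = 0.533) than Cubn was, and gave r = 0.481 with Cubn. Over the 17 clone sums, Dab2 gave r = 0.519 with Lrp2 and r = 0.182 with Cubn, unlike in the rescue lines. The points share tables, clones and depth, so these values are a description. Among the 17 clone sums alone, Cubn with Srgn gave r = 0.914 and Muc3 with Cd34 r = 0.909. Leaving out the January sum of MCM2-2A#2 after centring gave r = 0.932 for Cubn with Srgn. The January sum of MCM2-2A#1, centred with that sum alone, kept values that mirror it (-1.06 for Cubn, -1.05 for Srgn). This r therefore still holds the sum left out and does not show the correlation without it.

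**Figure D5:**
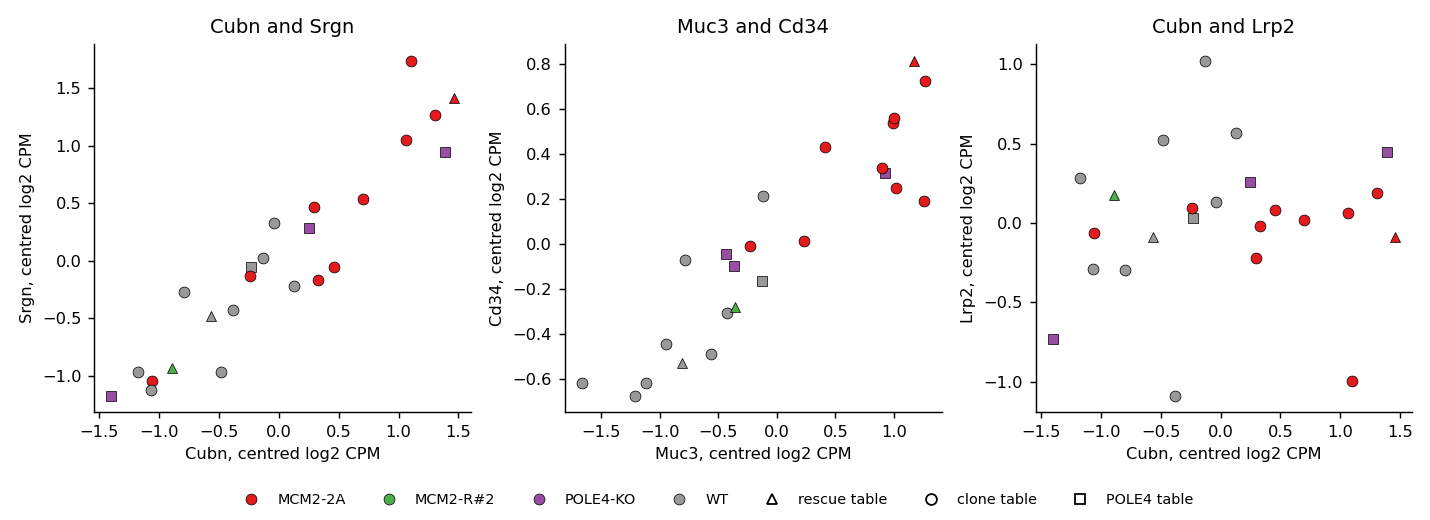
Centred log2 CPM of 3 gene pairs over 24 line means (points, coloured by genotype, shaped by table). Cubn and Srgn (r = 0.937) and Muc3 and Cd34 (r = 0.912) lie along a line, and Cubn and Lrp2 (r = 0.109) do not.

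Among 15721 genes tested in all 3 tables, the genes with levels most like those of Cubn were Srgn (r = 0.937), the primitive endoderm receptor gene Pdgfra (0.902) and the transcription factor gene Tbx3 (0.880). For Srgn they were Cubn (0.937), Pdgfra (0.860) and Gata6 (0.857). Lrp2 was nearest to the transcription factor genes Gata3 (0.931), Sox4 (0.915) and Creb5 (0.914). Muc3 and Cd34 shared their nearest gene, the transcription factor gene Foxn4 (0.947 and 0.935), followed by Slc25a34 (0.934) and Myo15b (0.930) for Muc3 and by Hpcal4 (0.926) and Gm9732 (0.917) for Cd34. Amn was nearest to Endog (0.878), Rhov (0.870) and Pcbd1 (0.861), and Dab2 to Nab1 (0.880), Nxf7 (0.877) and Fgf10 (0.869), each over the 24 line means.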

How the data were processed

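The 3 tables that the authors deposited hold raw counts for genes and repeat subfamilies, made from reads trimmed with Trimmomatic 0.39, aligned to mm10 with STAR 2.7.1a and, per the labels of the clone and POLE4 samples, counted with featureCounts. Counts were used as deposited. Of the columns, 65 were tied to samples and 3, whose line number belongs to no sample, were not used. The clone WT#5 was not analysed here. The values of a gene of the endoderm marker list are not reported here. The members and the gene lists were chosen with earlier results of these data known. Symbols and positions come from a GENCODE annotation of GRCm38 that holds 55154 of the 55335 genes, and promoter windows from RefSeq, GRCm38.p6.

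Genes that passed filterByExpr (minimum count 10, minimum total 15) were tested with edgeR 4.0.16 quasi-likelihood tests in R 4.3.3, with TMM factors from genes alone and Benjamini-Hochberg adjustment over all genes. An SE was taken as the absolute log2 value over the root of its F, and correlations use log2 CPM with a prior count of 2. Runs of a culture were summed, and so were the clone libraries of a clone in a batch (the month in the study's sample list), which entered the fit as a covariate. Named genes are the 7 members, called list genes (up to 4 for each list) and the 3 genes most like each member. Alternatives were other scaling factors, no filter, DESeq2 1.42.0, single runs, batches or libraries, a replicate block and leaving out each library or clone. Library numbers pair the POLE4-KO clones, since the deviations of all 9 same-number pairs correlated above 0.1 (0.155 to 0.331) and 0 of 18 other pairs did. The tests were checked on simulated data.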

Additional observations from a re-analysis of the deposited data

Results flagged for a closer look

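Groups of 4 to 10 samples were searched for a sample that stood apart from the rest of its group by Dixon's test, and 2 of 35 groups held one, where chance gives about 1 in 20. Amn was at 1.49 CPM in MCM2-R#2 culture 4, and the other 3 cultures of that line were at 1.76 to 1.81 CPM. Lrp2 was at 93.6 CPM in MCM2-2A#8, and the other 8 MCM2-2A sums were at 156 to 198 CPM. The 3 POLE4-KO clones differed from each other under the same contrast with WT#1 by a test of the difference itself (edgeR quasi-likelihood F test, adjusted over all genes). The largest minus the smallest log2 fold change was 2.85 for Cubn (adjusted p = 4.4e-08), 2.64 for Srgn (adjusted p = 0.0023), 1.74 for Dab2 (adjusted p = 1.1e-06), 1.46 for Muc3 (adjusted p = 1.3e-04) and 1.18 for Lrp2 (adjusted p = 1.6e-07).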

How the results depend on the processing

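Under the alternatives run, direction was kept by all 7 genes where MCM2-R#2 was compared with MCM2-2A#2, and by all but Lrp2 where MCM2-2A cells were compared with WT in either experiment. In MCM2-R#2 against WT#1, the small values of Amn and Dab2 also turned. Counts of called genes moved more. With no filter on low counts, 792 genes were called in MCM2-2A#2 against WT#1 (470 in the main analysis), 584 in MCM2-R#2 against MCM2-2A#2 (231), 87 in MCM2-R#2 against WT#1 (51) and 847 in POLE4-KO#3 (505). DESeq2 called 387 in MCM2-R#2 against MCM2-2A#2 and 444 in MCM2-2A against WT clones (141). With the first run of each culture, 305 genes were called in MCM2-2A#2 against WT#1, and Amn missed its call (log2 fold change 1.07). In MCM2-2A against WT clones, 40 genes were called within August, 1 there without WT#1 and MCM2-2A#2, 858 with single libraries as units, 47 with MCM2-2A#4, #6 and #7 as 1 unit (1 member among them in place of 2) and 32 between the March libraries (0 members). Between those libraries, Lrp2 had a log2 fold change of 0.43, Muc3 2.57 and Srgn 1.94. The alternatives between March libraries, with MCM2-2A#4, #6 and #7 as 1 unit and without January library 1 of MCM2-2A#2 (123 genes called) were added after seeing the data.

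Leaving out 1 culture, clone or library at a time gave 285 (without MCM2-2A#2 culture 2) to 5.1e+02 called genes in MCM2-2A#2 against WT#1, 116 to 286 in MCM2-R#2 against MCM2-2A#2, 42 to 51 in MCM2-R#2 against WT#1, 13 to 179 in MCM2-2A against WT clones (13 without WT#1), 315 to 529 in POLE4-KO#3 (315 without WT#1 library 3), 1553 to 1959 in POLE4-KO#1, 1549 to 1976 in POLE4-KO#2, 717 to 1021 for their mean, 3051 to 3613 among POLE4-KO clones, 3830 to 5246 among WT clones and 1122 (without clone #8) to 2736 among MCM2-2A clones. Signs of small, uncalled values turned: in the POLE4-KO mean Dab2 ran from -0.10 to 0.023, Srgn from -0.41 to 0.48 and Lrp2 from -0.068 to 0.0038. Cd34 ran from -0.080 to 0.31 in POLE4-KO#1 and from -0.14 to 0.24 in POLE4-KO#2, and Amn from -0.21 to 0.45 in POLE4-KO#3. Without TMM factors Cd34 in POLE4-KO#2 was at -0.015. The calls of Cubn, Lrp2 and Dab2 in POLE4-KO#1 and of Cubn in POLE4-KO#2 held under all 17 alternatives, and Dab2 in POLE4-KO#3 was also called under 5 (for example DESeq2, adjusted p = 0.0025). The cause of these shifts was not tested.

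Whether culture numbers pair the rescue cultures was not clear. Above 0.1 were 5 of 12 same-number pairs (all pairs -0.118 to 0.404) and 6 of 36 other pairs (-0.3 to 0.261). The main analysis did not use these numbers. With the culture number as a replicate block, 605, 306 and 59 genes were called in the 3 rescue comparisons, and the members called were 6, 6 and 0, as without it. With the library number of the POLE4-KO clones as a replicate block (WT#1 columns, which share no number, left unnumbered), 2207, 2271 and 722 genes were called in POLE4-KO#1, #2 and #3, 1173 for their mean and 3944 among the clones, and the block changed no call of a member other than Dab2 in POLE4-KO#3 and Amn among the clones. Same-number pairs of the August clones all correlated positively, at 0.0513 to 0.127 for MCM2-2A clones and 0.0774 to 0.282 for WT clones. Of them, 10 of 20 and 22 of 30 were above 0.1. With 2 libraries per clone the other-number pairs mirror these values and add nothing. The August tests of the main analysis did not use this pairing. A replicate block of these library numbers was added after seeing the data. With it, 3091 genes were called among MCM2-2A clones, with Cubn (adjusted p = 0.0054) and Amn (0.0052) among them. Among WT clones 5709 were called, with Muc3 (0.0097) among them. No block was fitted for MCM2-2A against WT clones, which were compared as sums. The precision of Srgn is limited by its 1 to 16 counts in a POLE4 library.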

Other observations

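In the rescue experiment 1 culture of each of 2 lines was sequenced in 2 runs. In MCM2-2A#2 culture 4 the runs gave 18.9 and 20.3 CPM of Cubn, 13.8 and 15.2 CPM of Dab2, 8.55 and 9.16 CPM of Cd34 and 2.62 and 3.18 CPM of Srgn. In WT#1 culture 3 they gave 4.92 and 5.66 CPM of Cubn, 7.81 and 6.38 CPM of Dab2, 3.62 and 2.99 CPM of Cd34 and 0.897 and 1.07 CPM of Srgn.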
